A study of Mus musculus with 30 samples.

Results

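The core circadian clock was examined in mouse quadriceps through 10 genes, taken by symbol from a count table of 56748 genes: Bmal1, Clock and Npas2, the period genes Per1, Per2 and Per3, Nr1d1, Nr1d2, Dbp and Ciart. They were chosen by name, and all 10 were measured in every animal and passed the filter on low counts. The table held 30 libraries of quadriceps, each taken here as 1 mouse, since the labels name individual muscle sections. The labels give an age of 8 weeks at the tail vein injection and killing 2 weeks after the last injection, but no time of day for either. Whether groups or single animals were collected at different phases of the clock was therefore asked of the transcripts alone.

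WT mice were FVB/N (n = 5). All others were HSA-LR mice, given in the labels as genotype DM1 and line HSA-LR20b, a myotonic dystrophy type 1 model in which a human skeletal actin transgene carries an expanded CTG repeat. The transgene is driven in skeletal muscle, so that these mice model the muscle disease and not its other organs. NT mice were not treated (n = 8). Treated HSA-LR mice were given 1 of 6 agents or doses. The lowest dose of pacDNA-L9, 5.3 mg/kg, went to 4 mice, the middle dose of 21.2 mg/kg to 3 and the highest of 42.4 mg/kg to another 3. As controls, 3 mice received L9 without the polymer (free L9) and 2 received pacDNA-Scr, both at 5.3 mg/kg, and a further 2 received 40 nmol of Brush. L9 is a locked nucleic acid antisense oligonucleotide against the CUG repeat, pacDNA is its conjugate with a bottlebrush polymer of polyethylene glycol, pacDNA-Scr carries a scrambled sequence, and Brush is the polymer alone. The higher doses were reached by more injections, so that dose and number of injections cannot be told apart.

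The mammalian clock is a loop of transcription and repression that most cells run for themselves. The proteins BMAL1 and CLOCK, or NPAS2 in the place of CLOCK, pair on E-box sequences and switch on the period, Nr1d, Dbp and Ciart genes, and the PER proteins then shut this activity down. The nuclear receptors encoded by Nr1d1 and Nr1d2 repress Bmal1 at RORE sequences, so that over the day Bmal1 and Npas2 run opposite to Nr1d1, Dbp and the period genes. In skeletal muscle the clock is known for timing the fuel that the fibres use.

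This wiring was looked for in RefSeq promoter windows of the GRCm38.p6 assembly, which run from 250 bases before to 50 bases after a transcript start. Of the 10 genes, 9 had a window (13 windows in all). Per2 had none. The windows were searched on both strands for the E-box CACGTG, the E'-box CACGTT, the D-box TTATGTAA that DBP recognizes, and the RORE letters TAGGTCA and TAGGTTA. A motif was found in 5 genes, and none in the windows of Clock, Npas2, Nr1d2 and Dbp. The stretches around these matches are shown because they hold the letters these proteins are known to recognize, in genes whose levels are given below. Capitals mark the motif, and coordinates are those of the exact match in GRCm39.
Ciart, chr3:95789642-95789665, minus strand: atctagagtCACGTGttgccggta
Ciart, chr3:95789574-95789603, minus strand: ggaggCACGTGcagaaccgCACGTGtctgg
Per1, chr11:68989600-68989623, plus strand: acccaagtcCACGTGcagggatgt
Nr1d1, chr11:98666217-98666240, minus strand: acagatctcAACGTGccggctgct
Per3, chr4:151129311-151129336, minus strand: acccgcgcgTTATGTAAggtactcgg
Per3, chr4:151129264-151129289, minus strand: cgcccgcggTTATGTAAcccccgccg
Bmal1, chr7:112806703-112806727, plus strand: gtcggaaagTAGGTTAgtggtgcga
Bmal1, chr7:112806739-112806763, plus strand: ggcagaaagTAGGTCAgggacggag

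The Ciart window held 3 E-boxes, as did at least that many in 0.0883% of the 32851 windows searched, against 7.15% with any. Per1 held 1 E-box. The Nr1d1 match was an E'-box read from the other strand, a motif present in 4.68% of windows. Per3 held 2 D-boxes, found in that number in 0.0213% of windows and at least singly in 0.938%. Bmal1 held both RORE spellings, as did 0.0487% of windows. TAGGTCA was present in 2.61% of windows and TAGGTTA in 1.44%, those with both included. In GENCODE vM39 the Per1 and Bmal1 stretches lay in exons of the gene annotated as UTR, and the first Ciart stretch lay partly in such an exon. The second Ciart stretch lay in an intron, and those of Nr1d1 and Per3 upstream of the gene. A match is a run of letters and not evidence of binding.

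Library totals ran from 13605309 to 26956558 counts, with a median of 20141850.5. By the numbering of the samples the libraries fell into 2 deposited sets of 24 and 6. The first principal component, 59.4% of the variance, separated the sets completely, and 5 libraries of the second set listed all 37 mitochondrial genes at 0. The second set consisted of NT 7 and NT 8, animals C and D of the lowest dose, animal C of the middle dose and animal C of free L9. Within the first set, 9 libraries are named by group and running number and the others by animal numbers or letter codes. The 9 are all 3 at 42.4 mg/kg, NT 6, a WT library without a replicate number (WT unnumbered), free L9 A and B, Brush B and pacDNA-Scr B. Myofibre markers were high in every group, at 87192 to 170962 CPM summed over 6 genes, where CPM is the count scaled to the size of its library after TMM normalization. In whole tissue, fewer cells of a type and less RNA per cell cannot be told apart.

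Per kilobase of exon, the clock genes covered a wide range of levels. Over the 30 animals (mean ± SD), Nr1d1 had 30.6 ± 16.8 CPM per kb, Dbp 22.9 ± 13.3, Nr1d2 13.4 ± 3.59, Per1 6.81 ± 3.63, Per2 2.35 ± 0.896, Per3 1.84 ± 0.669, Clock 1.48 ± 0.445, Bmal1 1.08 ± 1.08, Ciart 1.05 ± 0.727 and Npas2 0.125 ± 0.160. Nr1d1, Dbp, Nr1d2 and Per1 thus had the higher means, while Nr1d1 and Dbp, as well as the genes from Per2 to Ciart taken as neighbours, lay within their spread of each other. Npas2 was close to the limit of detection with a mean of 0.687 CPM. Opposite-strand exons of other genes, Thra among them, cover 52.8% of the Nr1d1 exon bases and those of Sphk2 15.5% of Dbp. The strand setting of the counting is not given in the sources used here, so the levels of Nr1d1 and, in part, Dbp are uncertain.

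Bmal1, the activator without which the loop stops, was highest at 42.4 mg/kg. Its levels there were 20.4, 64.1 and 25.5 CPM in animals A, B and C. In NT mice they ran from 4.30 to 32.1 with a median of 9.29 CPM. All but 1 of the 8 NT mice lay below the lowest animal at 42.4 mg/kg, and the exception was NT 7 at 32.1 CPM. WT mice 1 to 4 had 2.60, 11.2, 7.52 and 7.60 CPM and WT unnumbered had 32.6. At 5.3 mg/kg the values were 5.06, 4.06, 4.58 and 20.1 CPM, and at 21.2 mg/kg 3.55, 10.2 and 6.91. WT unnumbered and animal D at 5.3 mg/kg thus stood apart from their own groups as NT 7 did. The controls stayed low, at 6.64, 8.08 and 5.72 CPM for free L9, 11.8 and 10.4 for Brush and 9.61 and 5.91 for pacDNA-Scr.

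Dbp, which encodes a transcription factor of the clock output and is switched on directly by BMAL1, was lowest in the same animals. At 42.4 mg/kg it was at 23.4, 10.9 and 21.2 CPM in A, B and C, against 12.7 to 146 with a median of 75.7 CPM in NT mice. Again NT 7 was the only NT animal within or beyond the range of the treated mice. WT mice 1 to 4 had 131, 68.5, 89.6 and 99.97 CPM and WT unnumbered 6.42. Animals A to D at 5.3 mg/kg had 113, 90.2, 103 and 32.3 CPM, those at 21.2 mg/kg 115, 110 and 88.2. The lowest animal of WT, of NT and of the 5.3 mg/kg group was in each case the one with the highest Bmal1. Free L9 gave 134, 25.6 and 178 CPM, so that animal B was low in Dbp while its Bmal1, 8.08 CPM, was not high. Its library had 22.3% of counts on mitochondrial genes, where WT unnumbered had 13.3% and the others that list these genes 6.17 to 11.97%, and the fewest genes detected of all 30, 14485, with 17844 in the next. Their part in these levels was not tested. Brush gave 77.0 and 51.9 CPM and pacDNA-Scr 114 and 109.

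**Figure D1:**
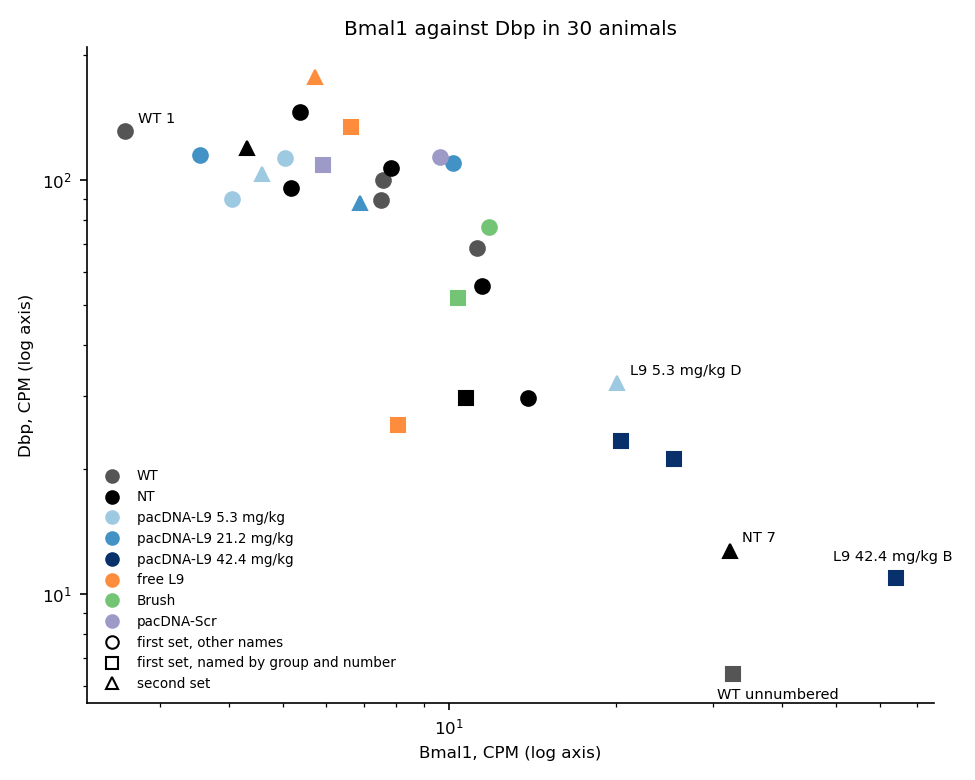
Level of Bmal1 (x axis) against Dbp (y axis) in each of the 30 animals, both in CPM on log axes, with a colour for each group and a symbol for the deposited set and library naming. The 3 animals at 42.4 mg/kg, WT unnumbered, NT 7 and animal D at 5.3 mg/kg lie at the lower right, with Bmal1 of at least 20.1 CPM and Dbp of at most 32.3 CPM.

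The ratio of Bmal1 to Dbp puts both genes on 1 axis. Relative to the NT median, it was highest in animal B at 42.4 mg/kg (log2 of 5.56, or 47.3-fold), WT unnumbered (5.35, 40.9-fold) and NT 7 (4.35, 20.4-fold). Animals C and A at 42.4 mg/kg followed with 3.28 and 2.83, then animal D at 5.3 mg/kg with 2.34. These 6 animals came from 4 groups, and the next, NT 4, had 1.91. At the other end stood WT 1 at -2.61. Group medians of this log2 ratio were -0.55 in WT, 0 in NT by construction, -1.45 at 5.3 mg/kg, -0.65 at 21.2 mg/kg, 3.28 at 42.4 mg/kg, 0.51 for Brush, -0.86 for pacDNA-Scr and -1.31 for free L9. The WT group spanned -2.61 to 5.35, wider than the distance between any of these medians.

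**Figure D2:**
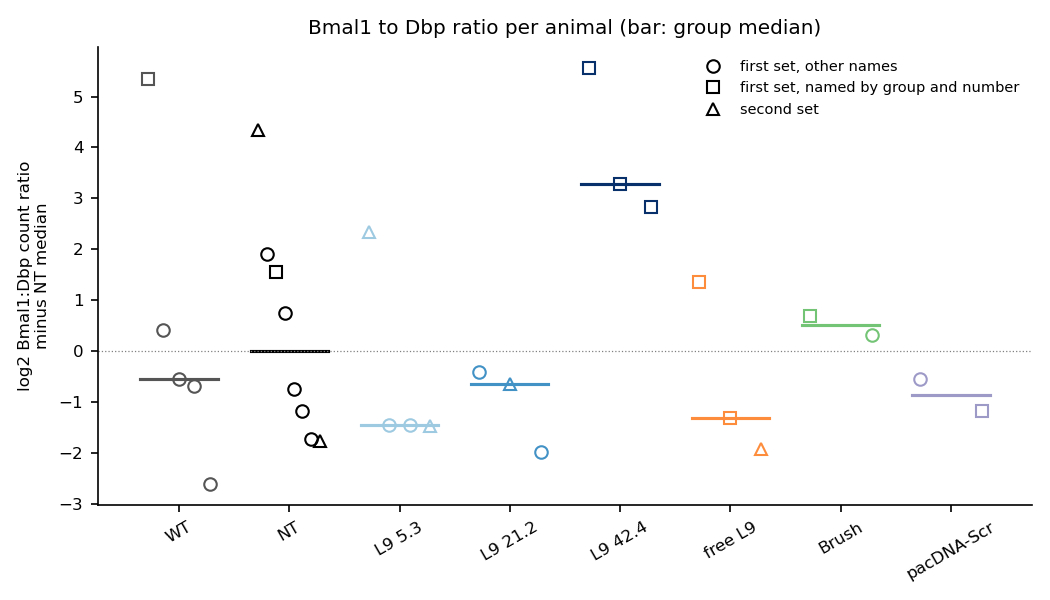
Log2 ratio of Bmal1 to Dbp relative to the NT median (y axis) in each animal by group (x axis), with the bar at the group median. All 3 animals at 42.4 mg/kg lie at 2.83 or above, as do WT unnumbered and NT 7, whereas the medians of the other groups lie between -1.45 and 0.51.

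The other activators moved less or could be measured less well. Clock, the partner of BMAL1, was at 21.5, 36.9 and 23.4 CPM at 42.4 mg/kg and at 15.4 to 41.8 with a median of 23.1 CPM in NT mice, so that the groups overlapped widely. Npas2 was below 1 CPM in most animals. Its highest levels were 3.72 CPM in NT 7, 3.13 in WT unnumbered and 2.22 in NT 6. NT 7 and WT unnumbered thus had the highest Npas2, the highest Clock (41.8 and 41.6 CPM) and, within their groups, the highest Bmal1.

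Nr1d1, the repressor also called REV-ERB alpha, was at 39.1, 48.6 and 27.2 CPM at 42.4 mg/kg. In NT mice it was at 52.0 to 139 with a median of 101 CPM. None of the 8 NT mice fell within the treated range. It was higher with free L9 (177, 149 and 179 CPM) and with pacDNA-Scr (275 and 113 CPM), and at 21.2 mg/kg it was spread from 54.6 to 160. WT mice had 65.9, 95.5, 58.8, 82.5 and, in WT unnumbered, 33.6 CPM. Unlike Bmal1, Nr1d1 did not set NT 7 apart, which had 88.5 CPM. Its paralogue Nr1d2 was at 77.4, 59.1 and 84.4 CPM at 42.4 mg/kg against 94.3 to 162 with a median of 112 CPM in NT, again without overlap. The lowest of all was WT unnumbered at 48.3 CPM, the other WT mice having 123, 137, 132 and 118.

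The period genes, which encode the repressor proteins of the loop, did not all move together at 42.4 mg/kg against NT. Per1 was at 56.3, 145 and 71.6 CPM at 42.4 mg/kg against 21.4 to 63.6 with a median of 47.9 CPM in NT. The groups overlapped, with animal A inside the NT range and animal B the highest of all 30 mice. Per2 was at 13.2, 13.8 and 13.4 CPM, inside the NT range of 5.62 to 28.1 CPM, and Per3 at 11.2, 7.62 and 14.3 CPM, against 7.66 to 26.0 with a median of 18.6 CPM. Per2 and Per3 were lowest in WT unnumbered, at 1.18 and 2.11 CPM, and the next lowest Per2 was that of NT 7 at 5.62 CPM. In those animals Per1 was at 36.9 and 21.4 CPM, and in animal D at 5.3 mg/kg it was at 71.7. Per1 responds to glucocorticoid hormone as well as to the clock. Free L9 B, the library with the fewest genes detected, had the lowest Per1, 9.32 CPM.

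Ciart, also called CHRONO, encodes a repressor of BMAL1 and CLOCK. It was at 0.70, 3.37 and 0.04 CPM at 42.4 mg/kg, the last of these from 1 count, and at 0.42 to 5.43 CPM in NT. It was at 0.26 CPM in WT unnumbered and 0.46 in NT 7. Animal B at 42.4 mg/kg, with the highest Bmal1 of all, thus had Ciart above the NT median of 1.87 CPM.

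**Figure D3:**
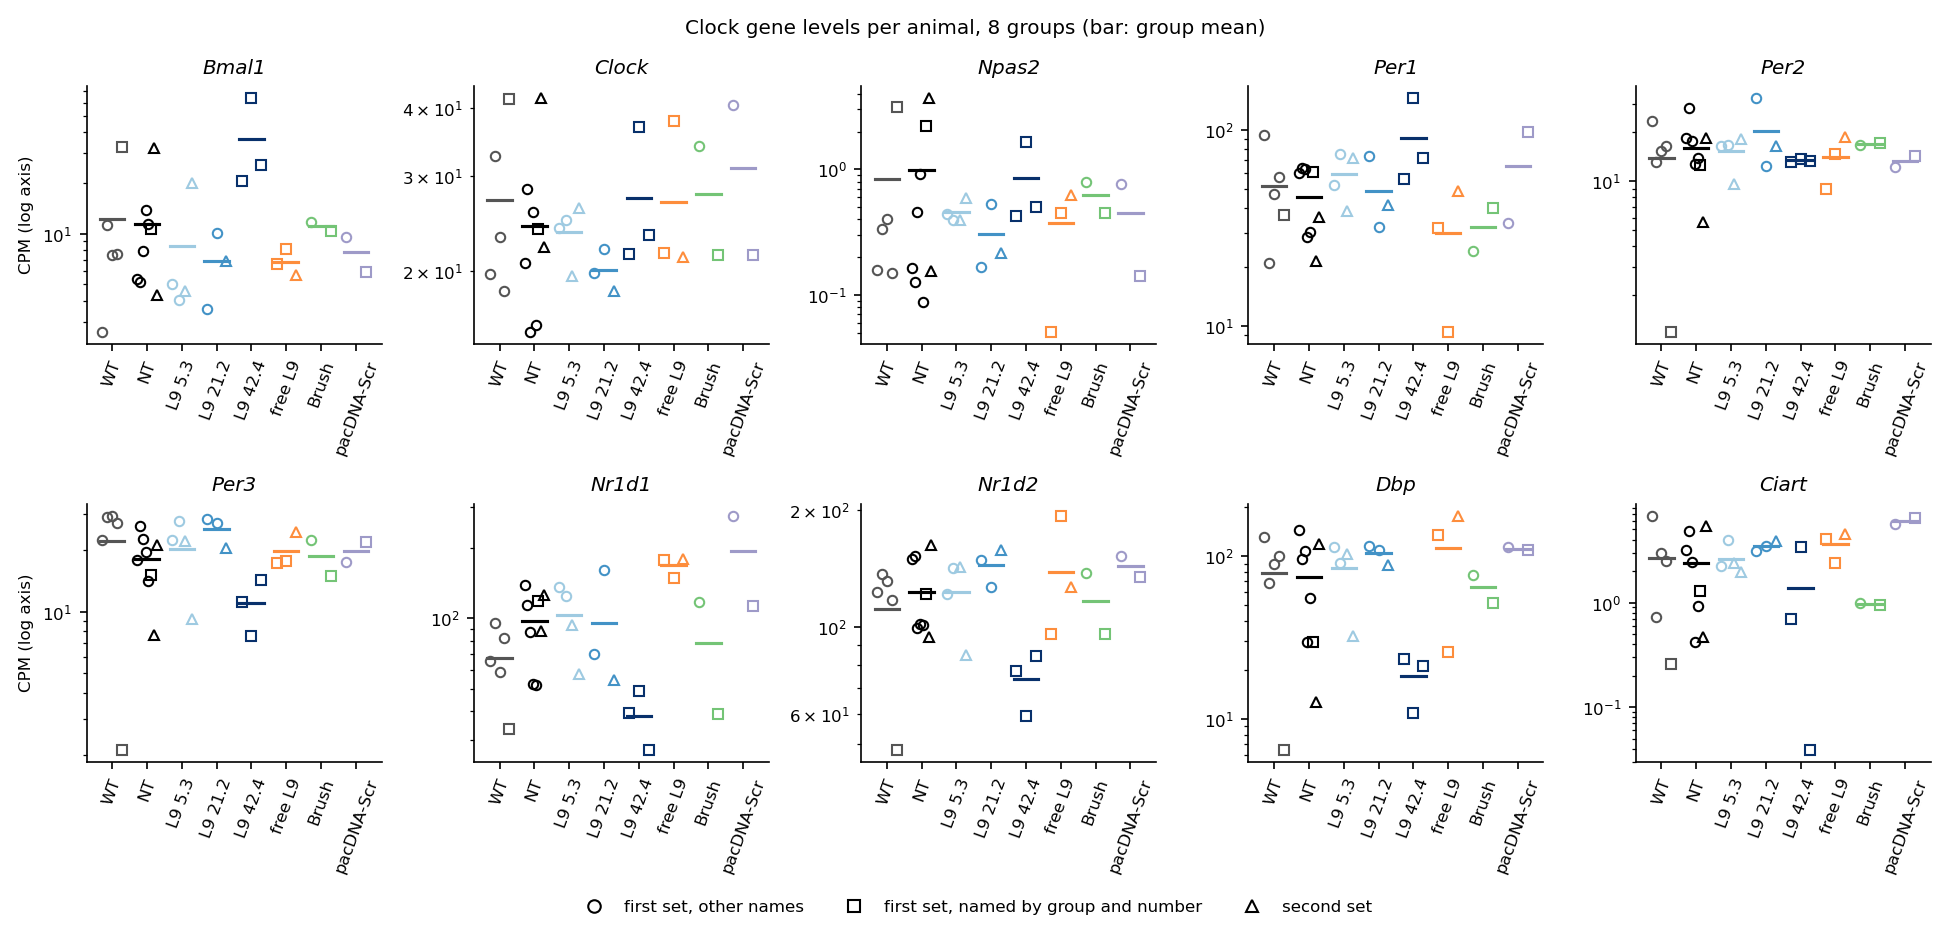
Level of each of the 10 clock genes (1 panel each, CPM on a log axis) in every animal by group, with symbols for the deposited set and library naming and a bar at the group mean. At 42.4 mg/kg Bmal1 lies at 20.4 to 64.1 CPM, Nr1d1 at 27.2 to 48.6 and Dbp at 10.9 to 23.4, and WT unnumbered and NT 7 lie beside them in the Bmal1 and Dbp panels.

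Whether the groups differed was tested for all 17518 genes that passed the filter, by the quasi-likelihood F-test of edgeR, with p-values adjusted after Benjamini and Hochberg and a threshold of 0.05. In the test of any difference among the 8 groups, 1 of the 10 clock genes passed, Nr1d1 with an adjusted p of 0.0492, beside 4.72% of all genes. At an unadjusted p under 0.05 there were 2, Nr1d1 and Bmal1, beside 15.8%. DESeq2 called Bmal1 and Nr1d1, 2 of 10 beside 10.6% of genes. The Nr1d1 call by edgeR lay at the threshold and was lost in 22 of the 30 repeats that each left out 1 animal. The highest adjusted p, 0.147, came without animal C at 42.4 mg/kg.

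No clock gene differed between NT and WT by edgeR at the adjusted threshold, where 4.97% of genes did, nor at the unadjusted one, where 21.5% did, and DESeq2 called 0. The log2 fold changes, NT over WT, ran from -0.29 for Per3 to 0.53 for Nr1d1, with a median of -0.10 beside 0.03 over all genes. For Bmal1 it was -0.12 with a 95% interval of -1.17 to 0.93, and for Dbp -0.09 with an interval of -1.18 to 1.00, so that a change by 1 log2 unit lay within or at the edge of the error. The groups held WT unnumbered and NT 7, which had near equal Bmal1.

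At 42.4 mg/kg against NT, 0 of the 10 clock genes passed by edgeR after adjustment over all genes, beside 2.57% of genes, and 5 had an unadjusted p under 0.05, beside 13.1%. The log2 fold change was 1.69 for Bmal1 (SE 0.60, adjusted p = 0.171 by edgeR) and 1.00 for Per1 (SE 0.45, adjusted p = 0.346 by edgeR). It was -1.34 for Nr1d1 (SE 0.42, adjusted p = 0.0977 by edgeR), -0.74 for Nr1d2 (SE 0.26, adjusted p = 0.169) and -2.01 for Dbp (SE 0.75, adjusted p = 0.214). The remaining values were 0.17 for Clock, -0.20 for Npas2, -0.25 for Per2, -0.70 for Per3 and -0.81 for Ciart. Over the 10 genes the median was -0.48, beside -0.06 over all genes. DESeq2 called 3, Nr1d1 (adjusted p = 0.00778), Dbp (0.0161) and Nr1d2 (0.0462), beside 7.7% of genes. The animals did not overlap for 2 of 10, Nr1d1 and Nr1d2, beside 7.0% of all genes.

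The results by edgeR at 42.4 mg/kg depended on single animals. The DESeq2 calls were not repeated with animals left out. Without NT 7, Bmal1 passed by edgeR (log2 fold change 2.12, adjusted p = 0.0397), and in the first deposited set alone it also passed (1.99, adjusted p = 0.0430). Without animal B at 42.4 mg/kg its log2 fold change was 1.01. That of Per1 was 0.49 without animal B and 1.25 without animal A, and that of Ciart -2.67 without animal B and -0.23 without animal C. All 3 mice at 42.4 mg/kg were female by their Xist and Y-linked counts, as were 4 of 8 NT mice, and all 3 bore library names by group and number, as did only NT 6 among NT. With the naming of the libraries as a covariate the log2 fold changes were 1.47 for Bmal1, -0.84 for Dbp, -0.98 for Nr1d1, -0.45 for Nr1d2 and 0.85 for Per1.

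The other treated groups gave no adjusted call by edgeR or DESeq2. At 5.3 mg/kg 0 of the 10 clock genes passed after adjustment or before it, where 0.0% and 1.43% of all genes did. At 21.2 mg/kg there was likewise none, beside 0.0514% and 1.66%. With free L9, 0 passed after adjustment, beside 0.126%, and 1 before it, beside 9.37%: Nr1d1 at a log2 fold change of 0.79 (SE 0.37). With pacDNA-Scr, 0 passed, beside 0.0%, and 1 before adjustment, beside 1.04%, again Nr1d1 (1.00, SE 0.42). Its log2 fold change was 0.22 without animal A of pacDNA-Scr and higher than with both without animal B. With Brush none passed at either threshold, beside 0.0% and 1.24%. With 2 animals per group, intervals were wide, as for Bmal1 with Brush at -0.04 (SE 0.75).

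**Figure D4:**
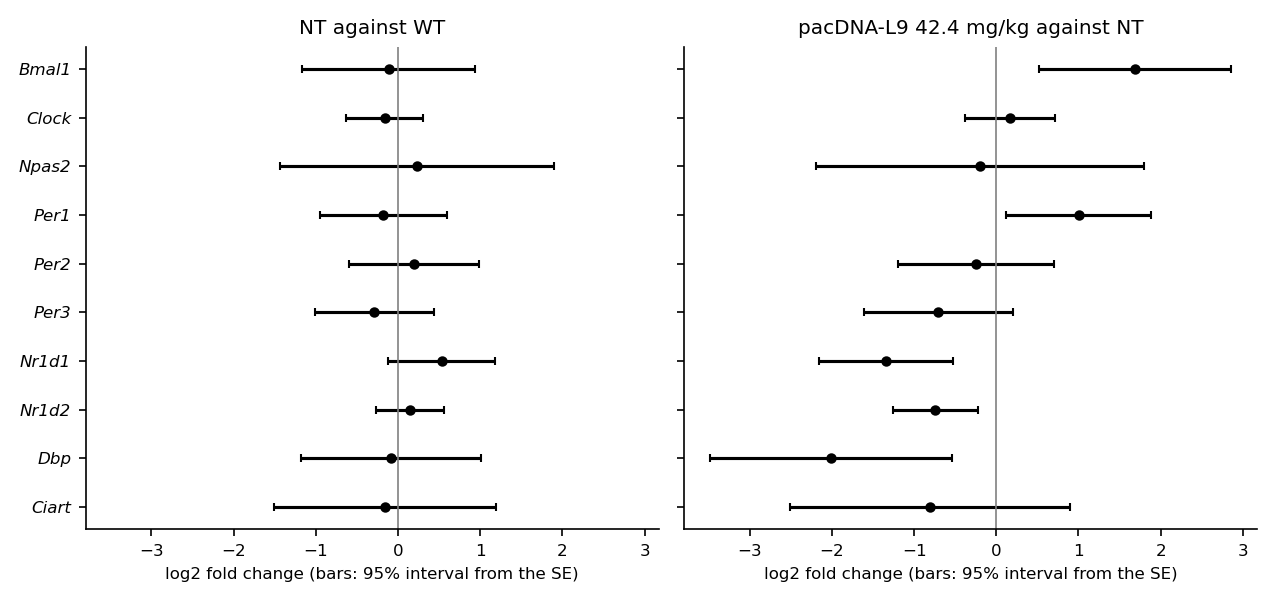
Log2 fold change of each clock gene (y axis) for NT over WT and for 42.4 mg/kg over NT (x axis, log2 scale), with the 95% interval from the standard error. Each NT over WT interval includes 0, while at 42.4 mg/kg those of Bmal1, Per1, Nr1d1, Nr1d2 and Dbp do not, all before adjustment over genes.

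The deposited sets and the styles of the library names were tested as possible batches, though the labels name no batch. Between the second and the first set, with the groups that both hold, 0 clock genes passed by edgeR beside 23.4% of 16697 genes, and 0 before adjustment beside 31.3%. DESeq2 called 0. Bmal1 had the second largest log2 difference, 0.75 (SE 0.40), after Npas2 at 0.91 (SE 0.68). Among the naming families of the first set, with group in the model, 0 passed beside 0.0% of 15832 genes, and 2, Nr1d1 and Npas2, before adjustment beside 7.4%. DESeq2 called 0 after adjustment and 3 before. Without a filter on low counts edgeR called 7 after adjustment. For the 3 and the 7 the shares over all genes are not given here, so these counts have no background. The animals with a high ratio of Bmal1 to Dbp came from both sets, with NT 7 and animal D at 5.3 mg/kg in the second. Those of the first set, WT unnumbered and the animals at 42.4 mg/kg (log2 of 2.83 or above), all bore names by group and running number. Others so named ran from -1.31 in free L9 A to 1.55 in NT 6. First-set animals with other names ran from -2.61 in WT 1 to 1.91 in NT 4. The part of the naming in the ratio was not tested.

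The clock genes varied strongly among animals of the same group. Their SD on the log2 scale within groups was 1.18 for Dbp, 0.94 for Bmal1, 0.88 for Per2, 0.83 for Per3, 0.74 for Per1, 0.61 for Nr1d1, 0.43 for Clock and 0.40 for Nr1d2. Among the 9574 genes with a mean of at least 5 CPM, Dbp was at percentile 94.997 of this spread and Bmal1 at 93.8, whereas Clock was at 74.1 and Nr1d2 at 69.6. Ciart (1.38) and Npas2 (1.42) had means below 5 CPM, where counting error adds to the spread.

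The variation within groups was shared between genes. After subtraction of the group mean, the 45 pairs of clock genes were correlated over the 24 animals of the first set, with permutations within groups and adjustment over the pairs. Bmal1 ran against Dbp (Pearson r = -0.773, permutation p = 0.00012, adjusted p = 0.0054, Spearman rho = -0.635, permutation p = 0.00057) and against Per2 (r = -0.798, adjusted permutation p = 0.00675, rho = -0.667). It ran with Npas2 (r = 0.723, adjusted permutation p = 0.0138, rho = 0.681), and Npas2 ran with Clock (0.700) and against Dbp (-0.780). The other pairs past the threshold were Per1 and Ciart (0.595), Per2 and Ciart (0.562), Per3 and Nr1d2 (0.800) and Per2 and Nr1d2 (0.800). Per2 and Per3 had the largest r of the 45 pairs, 0.886 (rho = 0.635), but did not pass (adjusted permutation p = 0.0615). Without WT 1 and WT unnumbered their r was 0.611. Altogether 9 of 45 passed by Pearson's r, 6 positive and 3 negative, and 8 by Spearman's rho. Nr1d1 did not run against Bmal1 within groups (r = -0.128). With the group means kept, which takes in the differences between groups, r was -0.515 (adjusted permutation p = 0.022).

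Much of this rested on a few animals. With the 2 animals farthest from the median of the first gene of each pair left out, 0 of 45 pairs passed. For Bmal1 and Dbp these were WT 1 and WT unnumbered, without which r was -0.582 (permutation p = 0.00211, adjusted permutation p = 0.0875). Within the 9 libraries named by group and number, r for Bmal1 and Dbp was -0.850 (exact permutation p = 0.00581), and in the other 15 it was -0.716. This exact permutation reordered all 9 animals across groups, and is not the test within groups used above. In the second set, NT 7 and animal D at 5.3 mg/kg had the highest Bmal1 of the 6 animals, 32.1 and 20.1 CPM, and the lowest Dbp, 12.7 and 32.3 CPM. The other 4 had Bmal1 of 4.30 to 6.91 CPM and Dbp of 88.2 to 178 CPM.

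**Figure D5:**
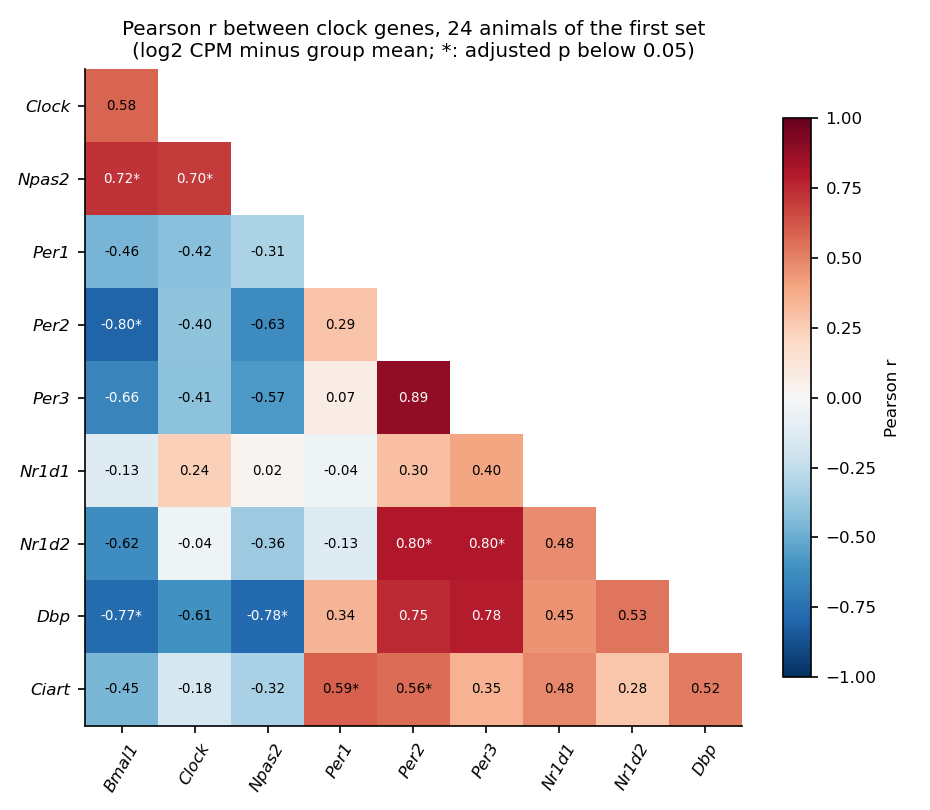
Pearson correlation between each pair of clock genes over the 24 animals of the first set, on log2 CPM after subtraction of the group mean (colour from -1 to 1, asterisk for an adjusted permutation p under 0.05). Bmal1 correlates at -0.773 with Dbp, -0.798 with Per2 and 0.723 with Npas2.

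Genes other than the members were ranked by their correlation with Bmal1. Of 9566 further genes with a mean of at least 5 CPM, those most like Bmal1 over the 24 animals were Mapkap1 (r = 0.858), Leo1 (0.842), Rgs2 (0.809), Clcc1 (0.805) and Oat (0.749). Those most opposed were Hlf (-0.791), Tcf7l1 (-0.790), Sec14l1 (-0.789), Bhlhe41 (-0.766) and Sspn (-0.764). Of these genes only Hlf and Bhlhe41 belong to the other core clock genes listed below. Hlf encodes a factor of the same family as DBP, and Bhlhe41 a repressor of the clock also called DEC2. No gene of the 9566 was more opposed to Bmal1 than Per2, and 3 were more opposed than Dbp. These r values, taken after subtraction of the group mean, describe the animals and were not tested. Without that subtraction r was 0.319 for Mapkap1, 0.496 for Leo1 and -0.330 for Tcf7l1. It was -0.825 for Hlf and -0.692 for Bhlhe41.

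Of 10 other core clock genes (among them Cry1, Cry2, Bhlhe40, Bhlhe41, Nfil3, Tef and Hlf), 1 passed at 42.4 mg/kg against NT by edgeR and 5 before adjustment. Over all genes the shares were 2.57% and 13.1%. The gene past the adjusted threshold was Bhlhe40, the repressor DEC1, at 53.3 ± 11.3 CPM (SD, n = 3) against 148 ± 38.5 CPM in NT (SD, n = 8). Its log2 fold change was -1.47 (SE 0.26, adjusted p = 0.00166 by edgeR), and it stayed past the threshold in all 22 alternatives run. Nfil3, the repressor that competes with DBP at D-boxes, had a log2 fold change of 1.99 (adjusted p = 0.131 by edgeR), Bhlhe41 -1.18 (0.163) and Hlf -1.10 (0.355). Tef, the other relative of DBP, had -0.07. In NT against WT 0 of these genes passed by edgeR, beside 4.97% of all genes, with 3 before adjustment, beside 21.5%. In the other treated groups 0 passed. None of the 9 tested regulators of clock proteins, such as the casein kinases Csnk1d and Csnk1e, passed at 42.4 mg/kg by edgeR. Before adjustment there were 2, beside 13.1% of all genes.

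Of 10 genes known to follow the clock in muscle, 3 rose at 42.4 mg/kg by edgeR, where 2.57% of all genes passed in either direction. Ucp3, a mitochondrial carrier, rose from 99.5 ± 40.6 CPM (SD, n = 8) in NT to 520 ± 103 (SD, n = 3), a log2 fold change of 2.39 (SE 0.35, adjusted p = 0.000241 by edgeR). Pdk4, the kinase that turns fibres from glucose to fat, rose by 3.77 (SE 0.75, adjusted p = 0.00511 by edgeR), and Klf15, a regulator of amino acid use, by 1.53 (SE 0.25, adjusted p = 0.000682 by edgeR). Without animal B at 42.4 mg/kg Pdk4 and Klf15 no longer passed by edgeR (adjusted p = 0.0559 and 0.119), while Ucp3 did. All 3 are also induced by glucocorticoids or fasting. The other 7 did not pass, and the median over the 10 was 0.21, beside -0.06 over all genes.

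The glucocorticoid targets were described because the hormone has a daily rhythm and acts on Per1. Of 9 such genes, 7 rose at 42.4 mg/kg by edgeR, where 2.57% of all genes passed in either direction. The median log2 fold change of the 9 was 2.49, beside -0.06 over all genes. Fkbp5, which dampens the receptor, was at 199 to 495 CPM against 14.0 to 75.9 in NT (log2 fold change 2.95, SE 0.55, adjusted p = 0.00269 by edgeR). Tsc22d3, known as GILZ, rose by 1.42, Sgk1 by 0.92, Zbtb16 by 1.21, Cdkn1a by 2.49, the metallothionein gene Mt1 by 4.58 and Ddit4 by 4.39. Without animal B at 42.4 mg/kg 6 of these 7 no longer passed, with Mt1 alone staying (adjusted p = 0.00372 by edgeR). Sgk1 was lost in 10 and Zbtb16 in 14 of the 22 alternatives. Of the same 9 genes 0 passed by edgeR in NT against WT, beside 4.97% of all genes, with 4 before adjustment, beside 21.5%.

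The animals outside 42.4 mg/kg that shared its Bmal1 and Dbp levels did not share all of these values. They were picked out after their Bmal1 and Dbp levels were seen, and the comparison is a description. Fkbp5 was at 34.8 CPM in WT unnumbered and 35.4 in NT 7, and Mt1 at 19.8 and 10.8 CPM, where animals at 42.4 mg/kg had at least 199 and 240 CPM. WT unnumbered and NT 7 thus lay within the NT range of 14.0 to 75.9 CPM for Fkbp5 and of 6.19 to 48.2 CPM for Mt1. Tef was lower in them, at 115 and 173 CPM, than in any animal at 42.4 mg/kg (267 to 315 CPM), and each was the lowest of its group. Bhlhe40 was at 62.9 and 94.1 CPM, also the lowest in WT and in NT. Pdk4 was high in WT unnumbered, at 1075 CPM, but not in NT 7, at 162 CPM. Animal D at 5.3 mg/kg lay between, with Fkbp5 at 92.2 CPM, the highest of its group, Tsc22d3 at 549 and Tef at 242. Of the other core clock genes, some were shared and some were not. Cry1 was at 23.2 CPM in WT unnumbered, 27.7 in NT 7 and 27.8 in animal D, each the highest of its group. At 42.4 mg/kg Cry1 was at 12.6 to 18.7 CPM. In WT unnumbered and NT 7 Cry2 was at 29.8 and 35.8 CPM, each the lowest of its group. At 42.4 mg/kg Cry2 was at 59.4 to 87.9 CPM. Nfil3 and Hlf were shared. Nfil3 was at 80.6 CPM in WT unnumbered, 48.0 in NT 7 and 111 in animal D, each the highest of its group. At 42.4 mg/kg it was at 38.4 to 203 CPM. Hlf was at 2.77, 3.95 and 7.85 CPM in these animals, each the lowest of its group, and at 2.89 to 7.28 CPM at 42.4 mg/kg.

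Of 7 immediate early genes, which report stress and handling, 0 passed at 42.4 mg/kg by edgeR, with 1 before adjustment. Over all genes the shares were 2.57% and 13.1%. Atf3 was higher in NT than in WT, at 54.5 ± 23.2 CPM (SD, n = 8) against 6.74 ± 5.81 (SD, n = 5), a log2 fold change of 3.01 (adjusted p = 0.00119 by edgeR). Macrophage markers were also higher at 42.4 mg/kg. Summed over 4 genes they were at 43.4 to 60.9 CPM at 42.4 mg/kg, against 17.3 to 26.98 in NT and 9.66 to 19.6 in WT. By edgeR 2 of the 4, Cd68 and Csf1r, passed, beside 2.57% of all genes. The sums were also at 35.3 to 44.01 CPM at 5.3 mg/kg, 29.6 to 56.2 at 21.2 mg/kg and 40.02 to 44.3 with Brush. With pacDNA-Scr they were at 23.9 to 30.4 CPM, which overlapped NT, and with free L9 at 16.8 to 20.1 CPM. Myofibre markers summed to 111810 to 134502 CPM at 42.4 mg/kg and 111928 to 170962 in NT. The part of the macrophage genes, of the glucocorticoid targets and of the time of collection in the levels of the clock genes was not tested.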

How the data were processed

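Poly(A)-selected RNA from quadriceps was sequenced as paired 150-base reads. The authors deposited raw counts per gene, whole numbers without normalization. The submitters' processing notes name HISAT2 2.0.5 and GRCm39, and the study names Rsubread. The counting options, strand setting and annotation release are not given in the sources used here. Of 56748 genes, 56017 were matched to GENCODE vM39 for symbols and positions. All columns of the table belonged to a labelled sample or group. The column of 1 WT library matched no replicate number and was assigned to WT alone (WT unnumbered). The animals are named by the replicate number or letter of the labels.

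The tests were run in edgeR 4.0.16 (R 4.3.3). After filterByExpr with 8 groups, 17518 genes remained. TMM factors were used, and the robust quasi-likelihood fit had 8 group coefficients and took in all 30 libraries. P-values were adjusted by Benjamini-Hochberg over all genes tested. The standard error was the log2 fold change divided by the square root of F. Correlations used log2 CPM with a prior count of 1, 100000 permutations and, under 10 animals, exact permutations, all two-sided. Permutations were within groups, except for the libraries split by naming and for values with the group means kept. DESeq2 1.42.0, other scalings and filters, covariates, deposited sets and left-out animals were alternatives. The fits were tested on simulated counts. No pair of replicates agreed within sampling noise (smallest chi-square per degree of freedom 19.3). As the labels name individual muscle sections, each library was taken as 1 mouse. Sex was read from Xist and Y-linked counts.

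The deviations of WT and NT mice with the same number had r from 0.102 to 0.305 in 4 pairs, with a mean of 0.206. Pairs of different number had a mean of -0.047 but ran from -0.335 to 0.300, so that the ranges overlapped. The labels state no pairing. All 10 clock genes are named, and from the other lists the genes past the threshold in a comparison with NT or WT or among the groups, beside others said to be chosen after their values were seen. The members and lists were chosen with earlier results of these data known. Intervals cover the spread between these animals only.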

Additional observations from a re-analysis of the deposited data

Results flagged for a closer look

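In groups of 4 to 10 animals, the highest or lowest level of each clock gene and of the log2 ratio of Bmal1 to Dbp was compared with its nearest neighbour by Dixon's criterion. Single genes were compared in CPM without a log. The criterion was met in 7 of 33 groups tested, where chance would meet it in about 1 of 20 for normally distributed values, and CPM is skewed. Bmal1 stood apart in WT unnumbered (32.6 CPM), in NT 7 (32.1 CPM) and in animal D at 5.3 mg/kg (20.1 CPM), in each case as the highest of its group. WT unnumbered also stood apart as the highest in Npas2 (3.13 CPM) and the lowest in Per3 (2.11 CPM) and Nr1d2 (48.3 CPM). The log2 ratio of Bmal1 to Dbp stood apart in animal D at 5.3 mg/kg (2.34 above the NT median) but did not in WT unnumbered (gap of 0.620 of the range against a critical value of 0.71) or in NT 7 (0.399 against 0.526). These are 3 animals in all, and the tests on them are not independent, since the genes vary together. The time at which these animals were collected is not in the labels and was not tested.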

How the results depend on the processing

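No clock gene was called in NT against WT or in the comparisons of 5.3 mg/kg, 21.2 mg/kg, free L9, Brush and pacDNA-Scr with NT, nor between the deposited sets, under any alternative run. With the replicate number as a block, NT against WT gave 0 calls (1 before adjustment), the same as without the block in those animals, and the block changed no call. At 42.4 mg/kg the count of 0 became 1 in the first set only and without the libraries lacking mitochondrial counts (Bmal1 in both), 1 with only the 2 groups fitted (Nr1d1, adjusted p = 0.0471 by edgeR), 3 with DESeq2, and 0 to 1 when an animal was left out. The difference among the 8 groups, 1 call, became 0 without a filter on low counts and with sex as a covariate, 2 without the libraries lacking mitochondrial counts and with DESeq2, and 0 to 1 when an animal was left out. Among naming families, 0 became 7 without a filter on low counts. The share over all genes in that setting is not given here, so the count has no background. The 9 correlated pairs became 25 without subtraction of group means and 0 without the farthest 2 animals.

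Some fold changes at 42.4 mg/kg, none of them past the threshold, reversed: Clock to -0.11 without animal B (-0.11 to 0.32 over the left-out animals), Npas2 to 0.33 in the first set, 0.15 with the set as a covariate, 0.35 without the libraries lacking mitochondrial counts and between -1.08 and 0.52 when an animal was left out, and Per2 to 0.31 with naming and 0.089 with sex as a covariate. The cause was not tested. Pdk4, Fkbp5, Tsc22d3, Ddit4 and Sgk1 lost the threshold with naming as a covariate, and these 5, Klf15, Cdkn1a and Zbtb16 without animal B at 42.4 mg/kg. Counts of a few reads limit Npas2 and Ciart.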
